A study of Mus musculus with 12 samples.

Results

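The 10 genes described here, Glul, Rlbp1, Slc1a3, Dkk3, Sox9, Sox2, Hes1, Vim, Clu and Abca8a, are markers of Müller glia, and were taken by gene symbol from the 52962 genes of the deposited table. They were followed through 12 libraries of hand-picked mouse rods, in which 9 of the 10 had enough counts to be tested and Sox2 did not. Retinas had been electroporated, an electric pulse that carries plasmid DNA into cells, and electroporated areas were dissociated with papain at postnatal day 8. Rods with GFP fluorescence were picked one at a time with a micromanipulator, 50 to 100 cells went into each library, and total RNA was amplified with the stranded SMARTer Pico kit.

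The 4 groups of 3 libraries were shRNA mCsnk2a1 (a short hairpin RNA against mouse Csnk2a1), shRNA Control, pcDNA4c mCsnk2a1 (an expression vector carrying mouse Csnk2a1) and pcDNA4c Control. Csnk2a1 encodes a catalytic subunit of protein kinase CK2, and the series asks how CK2 bears on the genes driven by NRL, the transcription factor that sets rod identity. Every group, controls included, was electroporated and picked by GFP. The labels call the 3 samples of a treatment independent, but the mouse strain, the promoters of the plasmids and the number of animals behind a sample are not given in the sources used here, so a p-value here speaks only of the spread among these libraries, which may be partly technical. In such pooled RNA, fewer cells of a type and less RNA per cell cannot be told apart.

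Müller glia are the radial glia that span the retina. They clear glutamate released by neurons and turn it into glutamine, they take part in recycling visual chromophore, and they keep several transcription factors of the retinal progenitors from which they arise, along with Notch signalling. The genes below are known as glial in the adult retina. None of them is a textbook rod gene, although progenitors and young neurons can carry some of them.

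The libraries held 1608926 to 3567121 summed estimated counts, with 2840426 to 3567121 in shRNA mCsnk2a1, 1608926 to 1856775 in shRNA Control, 2296056 to 3551328 in pcDNA4c mCsnk2a1 and 1692419 to 2017623 in pcDNA4c Control. All 16 genes of a rod list (Sag, Gnat1, Nrl and others) had counts in every library. Csnk2a1 itself had 12.0, 22.2 and 36.0 CPM (counts per unit of library size, scaled by edgeR's TMM) in shRNA mCsnk2a1, against 66.9, 57.2 and 8.51 CPM in shRNA Control, and 49.9, 145 and 122 CPM in pcDNA4c mCsnk2a1, against 86.6, 25.0 and 28.3 CPM in pcDNA4c Control. The groups overlapped in both comparisons, and neither difference passed (log2 -0.92 and 1.18, edgeR adjusted p = 0.905 and 0.801). The pcDNA4c Control libraries stood apart in a list of 15 microglia and macrophage genes, which summed to 17.5 to 48.1 CPM in shRNA mCsnk2a1, 60.7 to 103 CPM in shRNA Control, 38.6 to 98.4 CPM in pcDNA4c mCsnk2a1 and 2742 to 3331 CPM in pcDNA4c Control. Between 14 and 15 of these genes had counts in the pcDNA4c Control libraries and 3 to 8 in the others, where C1qa and Tyrobp had none in any of the 9 libraries. Bipolar cell genes were present too (10 or 11 of 12 in every library). Summed depth was greater in both Csnk2a1 groups than in their controls, and the mitochondrial share of counts was 10.1 to 11.4% in shRNA mCsnk2a1, 8.26 to 8.69% in shRNA Control, 9.54 to 12.8% in pcDNA4c mCsnk2a1 and 7.31 to 8.64% in pcDNA4c Control. Any value set against pcDNA4c Control below is read beside that.

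Levels can be compared between genes only per transcript length, in TPM (a transcript's share of the library, corrected for length). On that scale Clu was the most abundant of the 10, at 51.3 ± 33.4 TPM (mean and SD over 12 libraries). Rlbp1 followed at 29.2 ± 18.9 TPM, Vim at 23.8 ± 11.9, Slc1a3 at 20.6 ± 18.9 and Glul at 18.5 ± 12.5 TPM. Dkk3 averaged 10.4 ± 8.78 TPM, Abca8a 8.71 ± 10.1, Sox9 4.33 ± 5.39, Hes1 3.60 ± 4.71 and Sox2 0.503 ± 0.603 TPM. Neighbours in this order were not set apart by their spread: Clu was above Rlbp1 in 10 of 12 libraries, Rlbp1 above Vim in 6, Vim above Slc1a3 in 8, Slc1a3 above Glul in 7, Glul above Dkk3 in 10, Dkk3 above Abca8a in 6, Abca8a above Sox9 in 7, Sox9 above Hes1 in 6, and Hes1 above Sox2 in 7. Clu had a higher mean TPM than 95.7% of the genes tested and Glul than 86.0%, while Sox9 sat near the middle, above 50.0%. By mean TPM the 3 transcription factors Sox9, Hes1 and Sox2 thus came last.

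**Figure D1:**
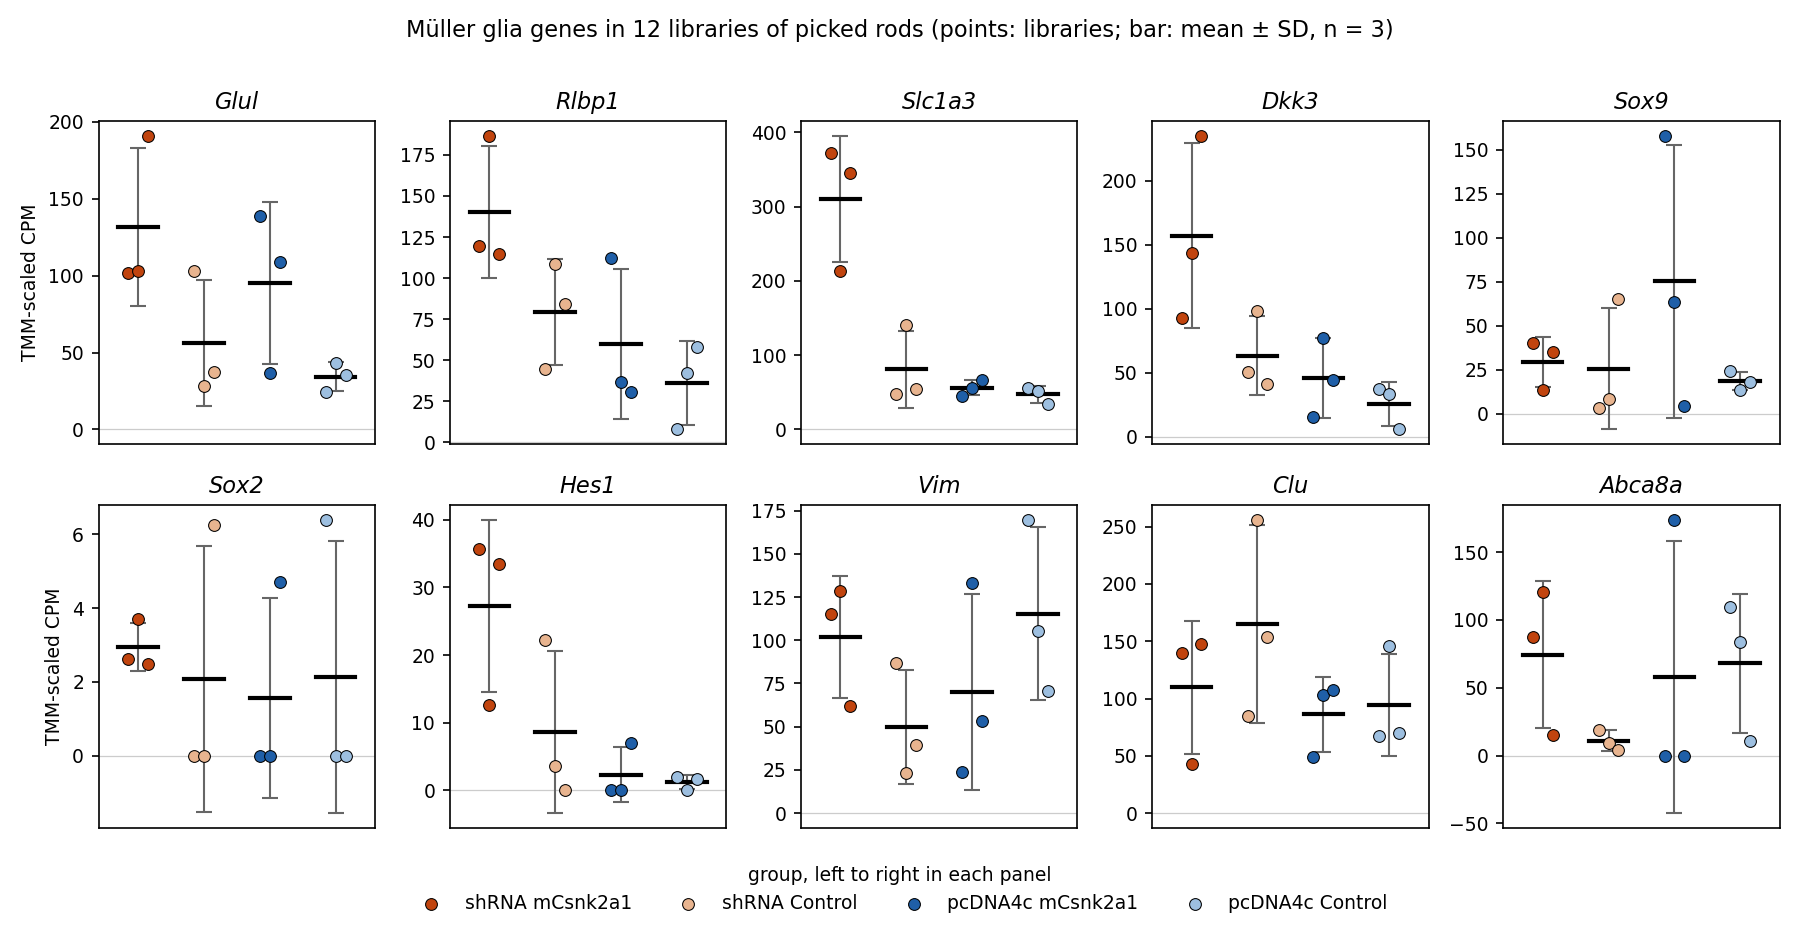
TMM-scaled CPM (vertical axis, its own linear scale in each panel) of the 10 Müller glia genes in each library, by group from left to right, with the mean and SD of 3 libraries. The 3 shRNA mCsnk2a1 libraries lie above all 3 shRNA Control libraries for Slc1a3 (213 to 371 against 47.2 to 141) and Rlbp1 (114 to 186 against 44.6 to 108), while Abca8a, Sox9, Hes1 and Sox2 spread over much of their range within single groups.

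Slc1a3 (chromosome 15, 8634124 to 8710764, minus strand, mm10) encodes GLAST, the glutamate transporter by which Müller glia take up glutamate. It had 371, 213 and 346 CPM in shRNA mCsnk2a1, against 47.2, 141 and 54.5 CPM in shRNA Control. All 3 knockdown libraries were above the highest control library, and the means were 310.1 ± 84.8 and 80.7 ± 51.9 CPM (SD, n = 3 each). The log2 difference was 1.94 (SE 0.59), the 93rd smallest p of the 20267 genes tested, at an unadjusted p of 0.00363 and an adjusted p of 0.598 (edgeR quasi-likelihood test, Benjamini-Hochberg), so it did not pass the threshold of 0.05. Over all alternative settings and left-out libraries its adjusted p lay between 0.0727 and 0.868. With the vector, Slc1a3 had 45.5, 56.4 and 66.1 CPM in pcDNA4c mCsnk2a1, against 56.1, 51.5 and 33.8 CPM in pcDNA4c Control. Those groups overlapped, with a log2 difference of 0.25 (SE 0.57, adjusted p = 0.999). The overexpression difference minus the knockdown difference was -1.69 (SE 0.81), at an unadjusted p of 0.0496 and an adjusted p of 0.598 (edgeR), which did not pass either.

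Glul (chromosome 1, 153899944 to 153909723, plus strand) encodes glutamine synthetase, the enzyme that converts the glutamate so taken up. Its levels were 101, 103 and 191 CPM in shRNA mCsnk2a1, against 103, 28.0 and 37.4 CPM in shRNA Control. One control library, shRNA Control 1, sat level with the knockdown libraries and the other 2 were lower. The log2 difference was 1.23 (SE 0.72, adjusted p = 0.669, edgeR). In pcDNA4c mCsnk2a1 it had 139, 36.7 and 109 CPM, against 24.1, 43.0 and 35.5 CPM in pcDNA4c Control, where pcDNA4c mCsnk2a1 2 lay inside the control range and the other 2 above it. That log2 difference, 1.47 (SE 0.72), had an unadjusted p of 0.0556 and an adjusted p of 0.569 (edgeR). Glul thus averaged above its control in both arms, but neither difference passed, and overexpression minus knockdown was 0.25 (SE 1.00, adjusted p = 1).

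Rlbp1 (chromosome 7, 79374870 to 79387048, minus strand) encodes CRALBP, the retinaldehyde-binding protein of Müller glia and pigment epithelium. It had 119.8, 186 and 114 CPM in shRNA mCsnk2a1, against 44.6, 108 and 84.5 CPM in shRNA Control. The groups did not overlap, but the gap between the lowest knockdown and the highest control library was small, and the log2 difference of 0.83 (SE 0.76, adjusted p = 0.893, edgeR) was close to its own error. With the vector it had 112, 36.7 and 30.9 CPM in pcDNA4c mCsnk2a1, against 7.87, 42.0 and 58.2 CPM in pcDNA4c Control. The single high library pcDNA4c mCsnk2a1 1 carried that difference of 0.73 (SE 0.76, adjusted p = 0.921), which was -0.037 without that library.

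Slc1a3 and Rlbp1 were the only 2 members whose knockdown libraries all lay above their controls in CPM, so the 250 bases before their RefSeq starts are shown (GRCm38.p6, 5′ to 3′ on the gene's strand). Capitals mark matches to TGCTGA, part of the NRL recognition site, or to TAATCC, the core recognised by the photoreceptor factor CRX, on either strand.
Slc1a3, chr15:8710808-8711057, minus strand: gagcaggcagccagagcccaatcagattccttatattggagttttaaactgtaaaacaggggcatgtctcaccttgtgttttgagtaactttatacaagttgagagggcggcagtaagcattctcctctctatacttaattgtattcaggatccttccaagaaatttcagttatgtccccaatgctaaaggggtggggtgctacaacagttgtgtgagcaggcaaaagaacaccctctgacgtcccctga
Rlbp1, chr7:79387028-79387277, minus strand: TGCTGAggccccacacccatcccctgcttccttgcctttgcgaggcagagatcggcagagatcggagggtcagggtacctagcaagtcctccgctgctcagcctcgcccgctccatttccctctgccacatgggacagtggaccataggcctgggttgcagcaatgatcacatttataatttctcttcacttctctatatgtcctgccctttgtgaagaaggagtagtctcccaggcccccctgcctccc
Slc1a3 had neither motif in this window, and Rlbp1 had 1 match to TGCTGA at the far end. Of the 6 members with a promoter in the RefSeq table (Glul, Rlbp1, Slc1a3, Sox2, Vim and Abca8a), 3 held TGCTGA (Rlbp1, Sox2 and Abca8a) and 0 held TAATCC, beside 16.1% and 6.25% of 32851 promoters of the same length. A match says only that these letters are present.

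Dkk3 (chromosome 7, 112116017 to 112159057, minus strand) encodes a secreted Dickkopf-family glycoprotein found in Müller glia. It had 92.4, 144 and 235 CPM in shRNA mCsnk2a1, against 50.3, 98.2 and 41.4 CPM in shRNA Control. Only shRNA Control 2 reached the knockdown range, and the log2 difference was 1.31 (SE 0.80, adjusted p = 0.704, edgeR). In pcDNA4c mCsnk2a1 it had 14.9, 77.4 and 44.0 CPM, against 37.4, 33.5 and 5.54 CPM in pcDNA4c Control, with overlapping groups and a log2 difference of 0.83 (SE 0.80, adjusted p = 0.904).

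Clu (chromosome 14, 65968483 to 65981547, plus strand) encodes clusterin, a secreted chaperone. It was the one tested member with a lower mean in shRNA mCsnk2a1, at 139, 42.5 and 147 CPM, against 84.5, 256 and 154 CPM in shRNA Control. The groups overlapped and the log2 difference was -0.59 (SE 0.64, adjusted p = 0.941, edgeR). In pcDNA4c mCsnk2a1 Clu had 48.6, 103 and 107 CPM, against 67.4, 145 and 69.8 CPM in pcDNA4c Control, a difference of -0.13 (SE 0.64, adjusted p = 1).

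Vim (chromosome 2, 13573927 to 13582826, plus strand) encodes the intermediate filament vimentin, which also marks macrophages and vascular cells. It had 115, 129 and 62.0 CPM in shRNA mCsnk2a1, against 87.1, 23.2 and 39.1 CPM in shRNA Control (log2 1.03, SE 0.74, adjusted p = 0.795, edgeR). With the vector it had 23.6, 133 and 53.0 CPM in pcDNA4c mCsnk2a1, against 169.7, 105 and 70.9 CPM in pcDNA4c Control (log2 -0.72, SE 0.73, adjusted p = 0.916), and the groups overlapped in both comparisons. Vim was the one member whose highest group mean in CPM was pcDNA4c Control, the group with 2742 to 3331 CPM of microglia and macrophage genes. In TPM its highest group mean was in shRNA mCsnk2a1, at 28.2 TPM, against 27.6 TPM in pcDNA4c Control. The part of microglia and macrophages in the Vim values was not tested.

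Sox9 (chromosome 11, 112782224 to 112787760, plus strand) encodes a transcription factor of progenitors and Müller glia. Its values were scattered within groups, at 40.2, 13.5 and 34.9 CPM in shRNA mCsnk2a1, against 3.11, 8.34 and 65.2 CPM in shRNA Control, a log2 difference of 0.21 (SE 1.18, adjusted p = 1, edgeR). In pcDNA4c mCsnk2a1 it had 158, 63.6 and 4.36 CPM, against 24.1, 13.5 and 18.3 CPM in pcDNA4c Control. One of those vector libraries was the highest of all 12 and another lower than all 3 of its controls, and the difference of 2.01 (SE 1.22) had an adjusted p of 0.667.

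Hes1 (chromosome 16, 30064384 to 30067796, plus strand) encodes a repressor switched on by Notch signalling. It had 35.7, 12.6 and 33.5 CPM in shRNA mCsnk2a1, against 22.3, 3.57 and 0 CPM in shRNA Control, and 0, 0 and 7.05 CPM in pcDNA4c mCsnk2a1, against 1.97, 0 and 1.66 CPM in pcDNA4c Control. Only in shRNA mCsnk2a1 did all 3 libraries exceed 10 CPM, but shRNA Control 1 lay between them, and the log2 difference was 1.65 with an SE of 2.11 (adjusted p = 0.970, edgeR). It was 3.90 without shRNA Control 1 and 1.07 without shRNA Control 3. Its overexpression difference was 0.94 (SE 2.11, adjusted p = 0.999).

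Sox2 (chromosome 3, 34650405 to 34652461, plus strand) encodes a progenitor and glial transcription factor and had at most 14 counts in any library. It was at 2.63, 3.69 and 2.50 CPM in shRNA mCsnk2a1, against 0, 0 and 6.24 CPM in shRNA Control, and at 0, 0 and 4.70 CPM in pcDNA4c mCsnk2a1, against 6.40, 0 and 0 CPM in pcDNA4c Control. A library without a count could have held up to 0.940 to 1.79 CPM (3 counts; counting error only), so a difference was not detectable at this depth.

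Abca8a (chromosome 11, 110025634 to 110095978, minus strand) encodes a lipid transporter of the ABCA family. It had 87.1, 121 and 15.3 CPM in shRNA mCsnk2a1, against 19.2, 9.53 and 3.97 CPM in shRNA Control (log2 2.77, SE 1.66, adjusted p = 0.686, edgeR). The lowest knockdown library lay below the highest control. In pcDNA4c mCsnk2a1 it had 0, 174 and 0 CPM, against 109, 84.0 and 10.5 CPM in pcDNA4c Control (log2 -0.23, SE 1.54, adjusted p = 1), so a single vector library held every count of that group. Abca8a and its neighbour Abca8b are close copies whose reads may be divided between them, which adds to the uncertainty of both.

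In the knockdown comparison, which asks what the hairpin against Csnk2a1 did to these genes, 0 of the 9 tested members passed edgeR at an adjusted p of 0.05, as did 0.0% of all genes, and 1 member (Slc1a3) had an unadjusted p under 0.05, beside 8.33% of all genes (1688 of 20267). DESeq2 and limma voom passed 0 members too, and 183 and 2 of all genes. The log2 difference was above 0 for 8 of the 9 and above 1 for 6 of the 9 (Slc1a3, Glul, Dkk3, Vim, Hes1 and Abca8a), beside 48.9% and 23.0% of all genes. The members' median was 1.23, against -0.03 over all genes. Hes1 passed the low-count filter only through shRNA mCsnk2a1, where it was high. Its place among the 9 therefore depended on that group. A filter of 50 counts in 3 libraries removed Hes1, and 7 of the 8 members left were above 0, with a median of 1.07. Groups did not overlap for 2 of the 9, both higher (Slc1a3 and Rlbp1), beside 5.61% of all genes, and for 0 lower, beside 6.68%. Without 1 library at a time, 7 or 8 members stayed above 0, and the median lay between 0.95 and 1.67.

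Gene lists of other cell types lay on both sides of 0. All 16 rod genes had a log2 difference above 0 in the knockdown comparison, with a median of 0.91. Groups did not overlap and were higher for 10 of 16 (beside 5.61% of all genes). However, 0 passed edgeR (9 at an unadjusted p under 0.05, beside 8.33%). DESeq2 passed 1, beside 183 of 16586 genes over all, and limma voom passed 0. A list of 14 progenitor and cell cycle genes summed to 689 to 918 CPM in shRNA mCsnk2a1, against 379 to 620 CPM in shRNA Control. A list of 9 cone genes summed to 248 to 273 CPM in shRNA mCsnk2a1, against 140 to 189 CPM in shRNA Control. By median log2 difference the progenitor (0.70), cone (1.25), bipolar (0.21) and pigment epithelium (0.32) lists were also above 0, and the astrocyte (-0.40), amacrine and horizontal (-0.68), ganglion (-0.56), vascular and blood (-1.14) and microglia and macrophage (-1.44) lists were below 0. The part of these lists, of depth and of the mitochondrial share in the members' values was not tested. The 10 members summed to 968 to 1181 CPM in shRNA mCsnk2a1, against 461 to 676 CPM in shRNA Control. In TPM, which is not TMM-scaled and in which the median gene differed by -0.30 on the log2(TPM + 1) scale, the sums were 225 to 263 TPM in shRNA mCsnk2a1, against 161 to 260 TPM in shRNA Control, and these overlapped. Relative to the summed TPM of the 16 rod genes, the members amounted to 6.07% ± 0.83 in shRNA mCsnk2a1 and 7.56% ± 2.70 in shRNA Control (SD, n = 3 each), with overlapping ranges of 5.14 to 6.74% and 4.96 to 10.3%. At the level of single genes in TPM, Slc1a3 kept its groups apart (all 3 knockdown libraries above the controls, beside 3.2% of all genes) and Rlbp1 did not.

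**Figure D2:**
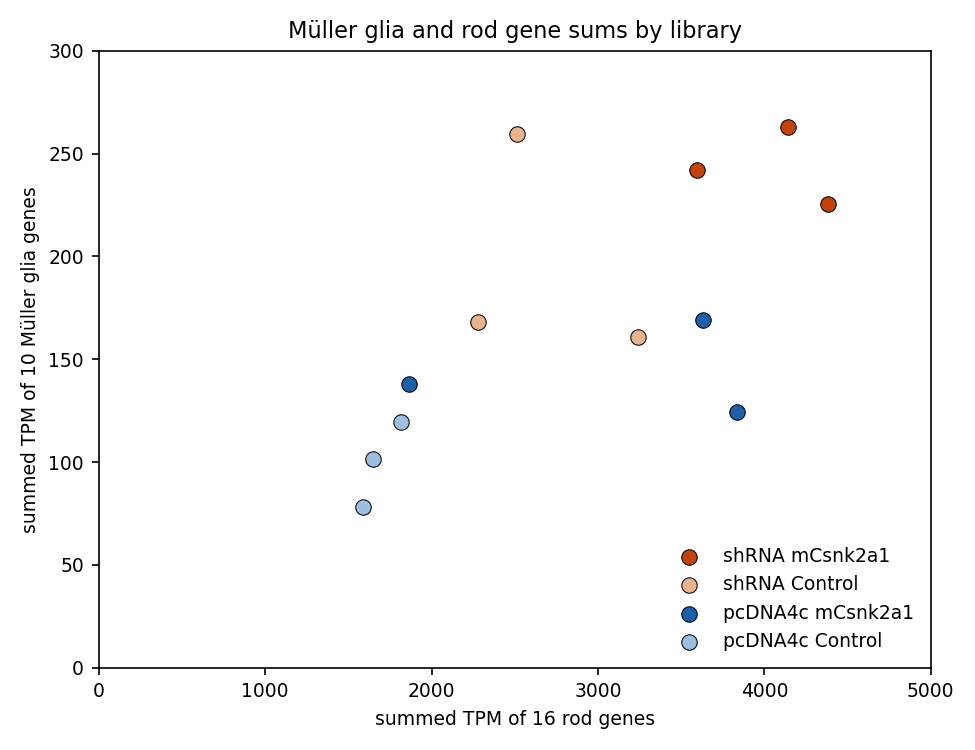
Summed TPM of the 10 Müller glia genes (vertical axis) against summed TPM of 16 rod genes (horizontal axis), 1 point per library, coloured by group. The shRNA mCsnk2a1 libraries sit at 225 to 263 TPM of glial genes and the pcDNA4c Control libraries at 78.2 to 119 TPM, where the rod sum is 1586 to 1817 TPM.

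In the overexpression comparison, 0 of the 9 members passed edgeR, beside 0.0987% of all genes (20 of 20267), and 0 members had an unadjusted p under 0.05, beside 8.73%. DESeq2 and limma voom passed 0 members. The log2 difference was above 0 for 6 of the 9 (beside 45.1% of all genes), with a median of 0.73, against -0.16 over all genes, and no member had groups that did not overlap (15.5% of all genes did). Without any 1 of the 6 libraries the median was 0.24 to 0.43. The members' sum was 427 to 681 CPM in pcDNA4c mCsnk2a1, against 304 to 518 CPM in pcDNA4c Control. In TPM it was 124 to 169 in pcDNA4c mCsnk2a1, against 78.2 to 119 in pcDNA4c Control, without overlap, and Glul and Slc1a3 were higher in all 3 vector libraries on that scale (beside 6.44% of all genes). Relative to rod genes the sums were 5.11% ± 2.12 in pcDNA4c mCsnk2a1 and 5.88% ± 0.85 in pcDNA4c Control, again overlapping.

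The difference between the arms, overexpression minus knockdown, passed edgeR for 0 of 9 members, beside 0.0197% of all genes, with 1 member (Slc1a3) at an unadjusted p under 0.05, beside 8.34%, and 0 passing by DESeq2 or limma voom. It was above 0 for 3 of the 9 (Glul, Sox9 and Clu), beside 47.0% of all genes, and the members' median was -0.48, against -0.15 over all genes. With the filter of 50 counts in 3 libraries, which removed Hes1, 4 of 8 were above 0 and the median was -0.20. Abca8a (-2.99, SE 2.23) and Vim (-1.75, SE 1.04) were below -1, as was Slc1a3. Abca8a was at -13.05 without pcDNA4c mCsnk2a1 2, and Hes1 (-0.72, SE 3.10) at -6.20 without pcDNA4c mCsnk2a1 3 and -2.96 without shRNA Control 1.

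Csnk2a1 was targeted in neither control group, so shRNA Control minus pcDNA4c Control shows how far groups can lie apart without it. Again 0 of 9 members passed edgeR (beside 0.0691% of all genes; 0 at an unadjusted p under 0.05, beside 4.21%, and 0 by DESeq2 or limma voom). In that contrast 7 of the 9 were above 0 (beside 50.0% of all genes) with a median of 0.77, against 0.00 over all genes. Dkk3 was higher in all 3 shRNA Control libraries (log2 1.31, SE 0.81, adjusted p = 1), beside 5.13% of all genes, and no member was lower in that way, beside 8.56%. Its difference between the controls stands beside a knockdown difference of 1.31, and both use the shRNA Control libraries. Hes1 (2.78, SE 2.23), Abca8a (-2.63, SE 1.65), Vim (-1.21, SE 0.74) and Rlbp1 (1.14, SE 0.77) also differed by more than 1 in log2 with adjusted p of 1. In TPM, where the median gene differed by 0.29, 4 members (Glul, Rlbp1, Slc1a3 and Dkk3) had groups that did not overlap, all higher, beside 11.7% of all genes. Slc1a3 differed by 0.77 (SE 0.57, adjusted p = 1) between the controls in CPM.

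**Figure D3:**
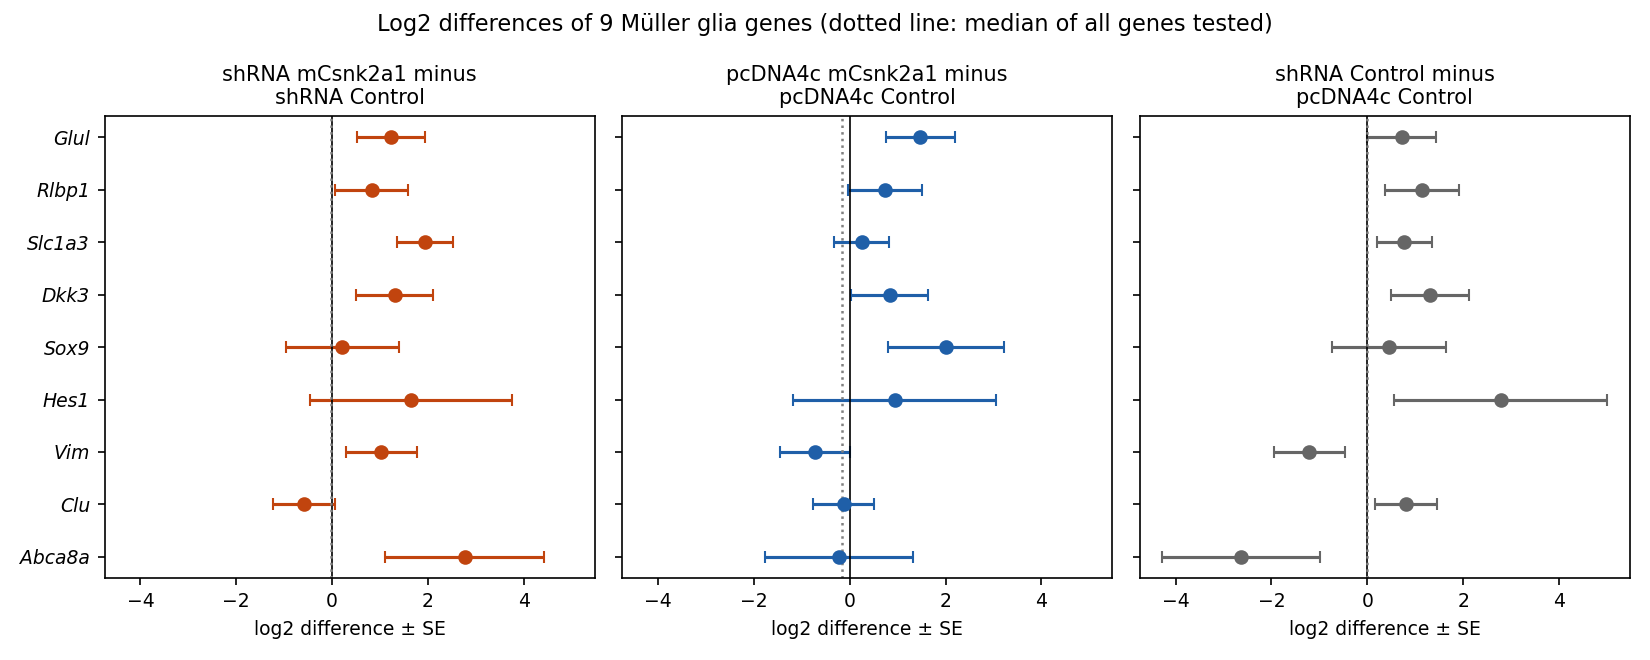
Log2 differences with SE from edgeR (horizontal axis) for the 9 tested genes (vertical axis) in 3 comparisons of 3 against 3 libraries, with a dotted line at the median of all 20267 genes. Under the hairpin 8 of 9 genes lie right of 0, with Slc1a3 at 1.94 ± 0.59, and no point passed an adjusted p of 0.05 in any panel. Hes1 is among the 9 only through its counts in shRNA mCsnk2a1.

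The transcript table shows what carried these signals. Of 51 annotated transcripts of the 10 genes, 3 were found in all 12 libraries (Glul-201, Dkk3-201 and Sox9-201), 15 in only 1 or 2 libraries and 6 in none. Annotated protein-coding transcripts held all of the TPM of Rlbp1, Dkk3, Sox9 and Sox2, 90.7% of that of Hes1 and 86.6% of that of Glul. The share was 72.5% for Clu, 64.6% for Vim, 57.0% for Abca8a and 46.1% for Slc1a3. For Slc1a3, retained-intron transcripts held most of the rest. Total-RNA libraries also hold unspliced RNA, and gene sums include it.

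Slc1a3-201, the main protein-coding transcript (4163 bases), had 19.0, 20.6 and 25.7 TPM in shRNA mCsnk2a1, against 6.65, 9.75 and 6.53 TPM in shRNA Control. The 3 knockdown libraries lay close together and at 2.85 times the control mean, so the Slc1a3 difference was also there without the retained-intron transcripts. The two-sided exact permutation p of 0.1, the smallest that 3 against 3 allows, only restates that the groups did not overlap. Among 42607 transcripts with a mean of at least 1 TPM, 1.95% were higher in all 3 knockdown libraries. With the vector it had 8.26, 0 and 8.30 TPM in pcDNA4c mCsnk2a1, against 1.90, 2.77 and 2.37 TPM in pcDNA4c Control (exact permutation p = 0.4), with 1 vector library at 0. It was also higher in shRNA Control than in pcDNA4c Control, at 7.64 ± 1.83 against 2.34 ± 0.434 TPM (SD, n = 3 each, exact permutation p = 0.1), as 5.61% of transcripts were. That ratio between untargeted groups was 3.26, beside 2.85 in the knockdown comparison. TPM is not TMM-scaled, and on log2(TPM + 1) the median gene differed by 0.29 between the controls and by -0.30 in knockdown. The 2 ratios therefore cannot be ranked. In TMM-scaled CPM the whole gene differed by 0.77 (SE 0.57) between the controls and by 1.94 (SE 0.59) in knockdown, in log2.

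Rlbp1-201 had 25.8, 15.5 and 27.7 TPM in shRNA mCsnk2a1, against 10.2, 0 and 16.4 TPM in shRNA Control, so the knockdown groups, apart for the whole gene, overlapped for its main transcript. In the other arm it had 9.29, 13.3 and 11.5 TPM in pcDNA4c mCsnk2a1, against 0, 4.76 and 0 TPM in pcDNA4c Control, without overlap (3.52% of transcripts were higher in that way). Clu-201 went the other way, at 7.52, 2.49 and 14.4 TPM in shRNA mCsnk2a1, against 45.1, 21.5 and 77.2 TPM in shRNA Control, with every knockdown library below every control (4.92% of transcripts were). For the gene as a whole the Clu groups overlapped. The leading transcript of Abca8a, Abca8a-207 (631 bases), reached 28.7 TPM in pcDNA4c mCsnk2a1 2, 2.25 TPM in shRNA mCsnk2a1 2 and 0 in the other 10 libraries, and 5 of its 8 transcripts were found in only 1 or 2 libraries.

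**Figure D4:**
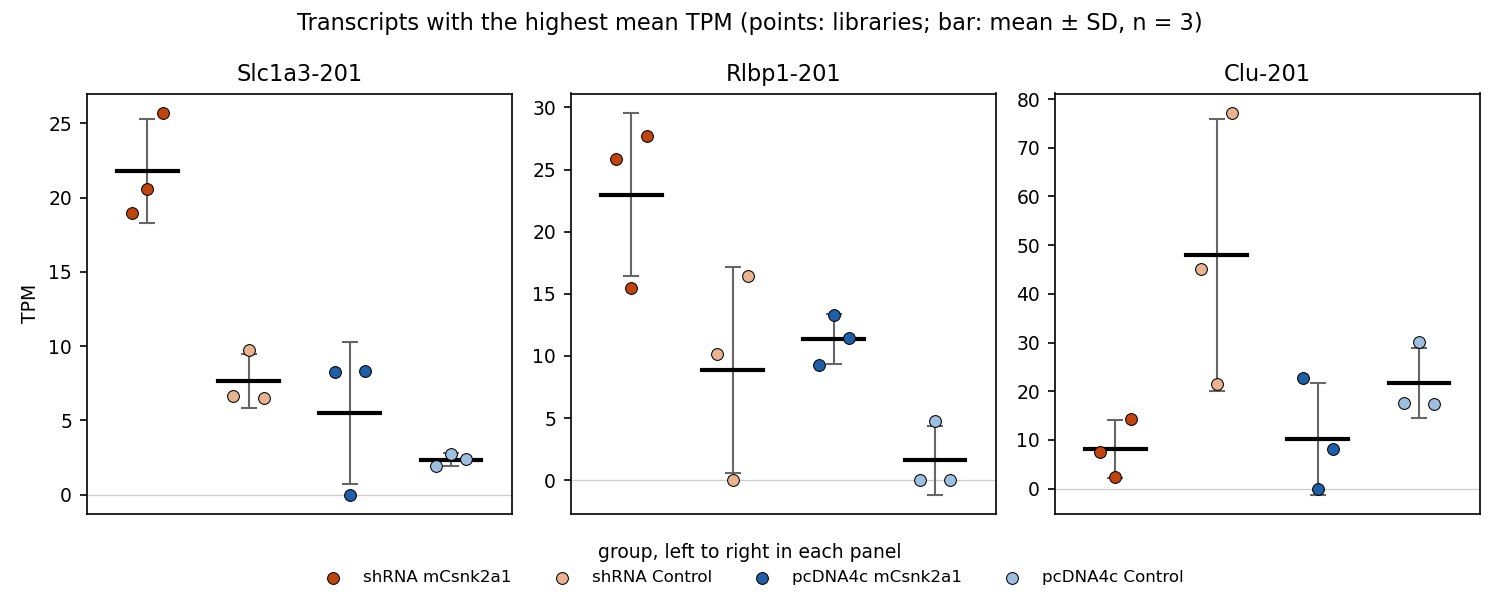
TPM (vertical axis, linear, its own scale in each panel) of the leading transcripts of Slc1a3, Rlbp1 and Clu in each library, by group from left to right, with the mean and SD of 3 libraries. Slc1a3-201 sits at 19.0 to 25.7 TPM in shRNA mCsnk2a1 and at 6.53 to 9.75 TPM in shRNA Control, and Clu-201 lies lower in shRNA mCsnk2a1 (2.49 to 14.4 TPM) than in shRNA Control (21.5 to 77.2 TPM).

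Within groups, the members varied from library to library by a median coefficient of variation of 46.0% in shRNA mCsnk2a1, 66.7% in shRNA Control, 75.8% in pcDNA4c mCsnk2a1 and 47.1% in pcDNA4c Control, beside 90.5%, 85.9%, 98.2% and 65.4% for all genes tested. Genes whose group mean lay between those of the lowest and highest tested member gave 61.1%, 70.1%, 98.2% and 67.3%. Of the 9 tested members 6 had their highest group mean in CPM in shRNA mCsnk2a1, as did 25.5% of all genes tested. These 6 include Hes1, which passed the low-count filter only through that group. The members did not go up and down as 1 block, since across the 12 libraries the median Pearson correlation of log2 CPM over 36 pairs of members was 0.16, with 24 pairs above 0. The pairs most alike were Vim with Abca8a (0.83) and Slc1a3 with Dkk3 (0.81), as a description of libraries that share groups and depth. Likeness to the members' mean profile was ranked over 7086 non-member genes with a mean of at least 20 CPM and counts in all 12 libraries. Predicted genes (Gm, Rik) and pseudogenes were then left out, wherever they ranked. The most alike of the rest were Rpph1 (r = 0.95), the RNA component of RNase P, Sf3a2 (0.94), a splicing factor, and the histone gene Hist1h1c (0.94). After them came the histone gene Hist1h4d (0.87) and the photoreceptor transducin subunit Gngt1 (0.87), with no p given. None of these 5 is known as a glial gene.

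A further list of 33 genes of Müller glia had 30 members with enough counts. In the knockdown comparison 22 of the 30 were above 0 (beside 48.9% of all genes) with a median of 0.65, and groups did not overlap for 6, all higher (beside 5.61% of all genes). None passed by edgeR (7 had an unadjusted p under 0.05, beside 8.33%), DESeq2 or limma voom. These 7 went both ways, with Apoe, Cp, Gpm6b and Ptn higher and Nfix, Id3 and Mt2 lower in shRNA mCsnk2a1. Apoe, the lipid carrier that both glia and macrophages secrete, had 178, 246 and 412 CPM in shRNA mCsnk2a1, against 116, 135 and 53.9 CPM in shRNA Control, and its log2 difference of 1.46 (SE 0.44) did not pass (adjusted p = 0.598, edgeR). In pcDNA4c mCsnk2a1 Apoe had 75.2, 108 and 119 CPM, against 1231, 1096 and 926 CPM in pcDNA4c Control. Its log2 difference was -3.43 (SE 0.47, adjusted p = 0.0025, edgeR), a fall and the only gene of this list that passed in that comparison, where 19 of 30 genes were above 0. Between the controls, shRNA Control minus pcDNA4c Control, Apoe differed by -3.42 (SE 0.47, adjusted p = 0.00165), and the part of the microglia and macrophage genes, at 2742 to 3331 CPM in pcDNA4c Control, was not tested. Also named by mean CPM, which is not corrected for length and gives no order of abundance, are Car2, a glial carbonic anhydrase, Gpm6b, a membrane glycoprotein, and Gpr37, a receptor of glia. Gpm6b had 168, 140.3 and 143 CPM in shRNA mCsnk2a1, against 65.3, 80.4 and 30.6 CPM in shRNA Control (log2 1.35, SE 0.58, adjusted p = 0.598). Car2 differed by 0.66 (SE 0.51, adjusted p = 0.835) and Gpr37 by 1.04 (SE 0.74, adjusted p = 0.791) in the same comparison.

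Astrocytes, the other macroglia of the retina, share Glul, Slc1a3, Sox9 and Vim with Müller glia. A list of 7 astrocyte genes summed to 386 to 555 CPM in shRNA mCsnk2a1, 198 to 1065 CPM in shRNA Control, 215 to 1912 CPM in pcDNA4c mCsnk2a1 and 365 to 575 CPM in pcDNA4c Control, with 3 to 7 genes of the list present per library. In the shRNA libraries most of each sum came from Slc1a2, a glutamate transporter gene of the list whose values are given below. Those sums therefore largely follow that gene. The astrocyte filament gene Gfap, which stressed Müller glia also make, had 0, 4.00 and 27.1 CPM in shRNA mCsnk2a1, against 23.3, 3.57 and 23.3 CPM in shRNA Control, and S100b had at most 1.66 CPM in any library. In the knockdown comparison 2 of 6 tested astrocyte genes were above 0.

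The genes that work with the members gave no shared direction. Of 12 genes of glutamate handling, Slc1a3 and Glul included, 6 were above 0 in the knockdown comparison and 7 in the overexpression comparison, with medians of 0.54 and 0.07. None passed edgeR, DESeq2 or limma voom in either (1 and 0 had an unadjusted p under 0.05 in edgeR, beside 8.33% and 8.73% of all genes). Slc1a2, the transporter GLT-1, had 308, 536 and 236 CPM in shRNA mCsnk2a1, against 852, 170.3 and 141 CPM in shRNA Control, a difference of -0.11 (SE 0.71, adjusted p = 1) unlike that of Slc1a3. Slc1a7, a photoreceptor and bipolar cell transporter, differed by 1.19 (SE 0.73) and the glutamine transporter gene Slc38a1 by -0.11 (SE 0.48) in that comparison, with adjusted p of 0.710 and 1.

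Of 12 genes of retinoid handling 11 were tested, Rlbp1 among them, and 5 were above 0 in the knockdown comparison (median -0.07) and 8 in the overexpression comparison (median 0.73). None passed edgeR, DESeq2 or limma voom (2 had an unadjusted p under 0.05 in each by edgeR, beside 8.33% and 8.73% of all genes). Rbp3, the interphotoreceptor retinoid carrier made by photoreceptors, differed by -0.07 (SE 0.33, adjusted p = 1) with the hairpin and 0.82 (SE 0.33, adjusted p = 0.568) with the vector. Dhrs3, a retinal reductase, had 47.3, 60.3 and 85.2 CPM in shRNA mCsnk2a1, against 19.7, 23.8 and 0 CPM in shRNA Control. Those groups did not overlap, beside 5.61% of all genes not overlapping and higher (log2 2.14, SE 1.21, adjusted p = 0.651, edgeR). The knockdown differences of Abca4, the photoreceptor retinoid transporter, and Rdh12, a photoreceptor retinol dehydrogenase, were -0.28 (SE 0.63) and 0.80 (SE 0.50), with adjusted p of 1 and 0.711.

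The Notch pathway, for which Hes1 is a target, had 27 of 29 genes tested, of which 16 were above 0 in the knockdown comparison and 18 in the overexpression comparison (medians 0.33 and 0.42). By edgeR 0 passed in each, with 3 and 0 at an unadjusted p under 0.05, beside 8.33% and 8.73% of all genes. Limma voom passed none, and DESeq2 passed 1 gene, the ligand Jag1, as lower in knockdown, beside 183 of 16586 genes over all. Jag1 was at 1.88, 0.308 and 0 CPM in shRNA mCsnk2a1, against 30.1, 11.9 and 22.7 CPM in shRNA Control (edgeR log2 -4.81, SE 1.71, adjusted p = 0.598). Notch1, the receptor, had 38.7, 89.2 and 696 CPM in shRNA mCsnk2a1, against 172, 79.2 and 81.7 CPM in shRNA Control, and Heyl, another target, had 1.88, 17.2 and 642 CPM, against 3.11, 62.5 and 6.24 CPM. The library shRNA mCsnk2a1 3 set both means, and the differences of 1.31 (SE 0.81) and 3.20 (SE 1.64) had adjusted p of 0.710 and 0.608. Rbpj, the nuclear mediator, differed by -0.18 (SE 0.79) and the gamma-secretase gene Ncstn by -0.33 (SE 0.80), both with an adjusted p of 1. Hes5, the other Notch effector of Müller glia, reached 1.50 CPM in 1 library of shRNA mCsnk2a1 and 3.97 CPM in 1 library of shRNA Control, and had no count in either pcDNA4c group.

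In the families of single members, 8 of 11 Sox genes were tested and 4 were above 0 in the knockdown and 5 in the overexpression comparison. Of these, 0 passed edgeR or limma voom (0 and 2 at an unadjusted p under 0.05 in edgeR, beside 8.33% and 8.73% of all genes). Sox4, a factor of immature neurons, had 336, 140.3 and 268 CPM in pcDNA4c mCsnk2a1, against 75.8, 39.5 and 56.5 CPM in pcDNA4c Control. Those groups did not overlap, beside 755 of 20267 genes not overlapping and higher. The log2 difference of 2.12 (SE 0.57, unadjusted p = 0.00157) had an adjusted p of 0.378 in edgeR. DESeq2 passed it, as it did 253 of 16222 genes in that comparison. The knockdown difference of Sox4 was -0.13 (SE 0.55, adjusted p = 1). Sox6 had 10.5, 6.58 and 0.671 CPM in pcDNA4c mCsnk2a1, against 27.1, 71.0 and 81.4 CPM in pcDNA4c Control (log2 -3.33, SE 1.34, adjusted p = 0.568). Sox5 and Sox12 differed by -1.15 (SE 1.53) and 0.82 (SE 0.83) in that comparison, with adjusted p of 0.967 and 0.915. Of 5 Dkk genes 3 were tested, with 1 above 0 in the knockdown comparison (Dkk3) and differences of -2.45 (SE 1.74) for Dkk2 and -1.09 (SE 1.99) for Dkk1. Of 5 genes of the Abca8a family 3 were above 0 in the knockdown comparison and 0 in the overexpression comparison, at 0.57 and -0.08 for Abca5, -0.30 and -0.70 for Abca8b, -2.09 and -3.31 for Abca6, and 1.27 and -1.59 for Abca9. Both families were without a call by edgeR, DESeq2 or limma voom in these comparisons (0 at an unadjusted p under 0.05 in edgeR, beside 8.33% and 8.73% of all genes).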

How the data were processed

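The members and gene lists were chosen with earlier results of these data known. The authors deposited estimated counts per gene that need not be whole, not normalized between libraries, TPM values per transcript in a table titled as raw counts, and a scaled CPM signal. Kallisto 0.45.0, edgeR 3.28 and mm10 are the tools and build in the submitters' processing notes, and no annotation release was found among the sources used here. The deposited scaled signal equals the gene table times 1 constant per library in 11 libraries and served as a check only.

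Estimated counts were rounded and fitted in R 4.3.3 with edgeR 4.0.16 (quasi-likelihood) over all 12 libraries in 4 groups, after filterByExpr with a minimum count of 10 (20267 genes) and TMM scaling, and p-values were Benjamini-Hochberg adjusted over all genes with a threshold of 0.05. The SE is the log2 difference divided by the square root of F, so it restates the test. Gene TPM is the sum over transcripts matched to GENCODE M21 (97.9% of 141196). Alternatives were other scalings and filters, DESeq2 1.42.0, limma 3.58.1 (voom, and log2 TPM with a pseudocount of 1 or 0.1), 6-library fits, a replicate block and leaving out each library. Scripts were tested on simulated data. Depth is 1608926 to 3567121 counts, without molecular identifiers, so 1 count is 0.308 to 0.595 CPM and floors cover counting error only.

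All 10 members are named. Of other lists, genes that passed are named, or up to 4 with the highest mean CPM. Gfap, S100b, Hes5, Jag1, C1qa, Tyrobp, Cp, Ptn, Nfix, Id3 and Mt2 were chosen after values were seen. Some genes of the other lists are counted but not reported singly here.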

Additional observations from a re-analysis of the deposited data

Results flagged for a closer look

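Apoe differed between the arms. Overexpression minus knockdown came to -4.88 in log2 units (SE 0.64, adjusted p = 0.00624, edgeR quasi-likelihood test over 20267 genes). All 3 pcDNA4c mCsnk2a1 libraries were below all 3 pcDNA4c Control libraries (75.2 to 119 against 926 to 1231 CPM), and all 3 shRNA mCsnk2a1 libraries were above all 3 shRNA Control libraries (178 to 412 against 53.9 to 135 CPM). DESeq2 and limma voom passed it too. Microglia and macrophage genes, which summed to 2742 to 3331 CPM in pcDNA4c Control and to at most 103 CPM in any other library, move with that contrast, and their part in it was not tested.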

How the results depend on the processing

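No member passed under any setting in any comparison. Of 345 values under other scalings, filters, tools, fits or units 329 kept their direction, and of 270 with 1 library left out 248 did. Slc1a3 kept its direction throughout, at 1.61 to 2.61 in knockdown. For the overexpression effect minus the knockdown effect, Rlbp1 turned to 0.090 with DESeq2 size factors and with DESeq2, 0.0017 with a filter of 50 counts in 3 libraries, 0.051 with the replicate block, and 0.63 and 0.76 on log2(TPM + 1) and log2(TPM + 0.1). Glul turned to -0.12 with voom and -0.11 with the block, Sox9 to -0.28 with voom, and Dkk3 to 0.095 and 0.35 on the TPM scales. In overexpression Hes1 turned to -0.72 with voom and -0.28 on log2(TPM + 0.1), and Clu to 0.23 and 0.24 on the TPM scales. Between controls Sox9 turned to -0.60 with voom. The cause was not tested. Leaving out 1 library gave ranges across 0 for Sox9 in knockdown (-0.32 to 2.36), for Rlbp1 (-0.037 to 1.26), Hes1 (-4.54 to 1.56), Clu (-0.32 to 0.33) and Abca8a (-10.28 to 0.42) in overexpression, for Glul (-0.54 to 0.63), Rlbp1 (-0.87 to 0.44), Sox9 (-0.35 to 2.36) and Clu (-0.0065 to 0.92) in the difference of effects, and for Glul (-0.063 to 1.04) and Sox9 (-1.70 to 0.98) between controls. The members' overexpression median of 0.73 was 0.24 to 0.43 with any 1 library left out. Same-numbered libraries did not deviate together (18 correlations, -0.040 to 0.036). The spread among libraries could hide a shared source, so this cannot settle whether the numbers pair samples. With the replicate block 0 members passed in each comparison, and all genes gave 1, 26, 9 and 18 calls in knockdown, overexpression, their difference and the control contrast, beside 0, 20, 4 and 14 without it. Without a low-count filter these were 93, 111, 137 and 71. DESeq2 gave 183, 253, 208 and 69, and limma voom 2, 37, 1 and 12. Low counts limit Sox2, with at most 14 in a library, and Hes1, with at most 95.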
